A study of Danio rerio with 6 samples.

Results

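A set of 9 genes that mark T cells or carry their signals was followed in zebrafish kidney marrow: lck, zap70, cd28, cd4-1, cd8a, il7r, ccr9a, gata3 and RUNX3. They were taken by symbol, except ccr9a, which was matched by its RefSeq name and neighbouring genes, as 9 of the 31484 genes counted. Kidney marrow is the adult blood-forming tissue of this fish, and it was compared between wild type animals (tet2 wt/wt) and homozygous mutants (tet2 -/-) aged 3 to 5 months, with 3 biological replicates per genotype. The cells were dispersed by pipetting and passed through a 70 micron filter, with no sort named, so the RNA comes from the whole marrow and from whatever kidney tissue came with it. The labels give neither the mutant allele nor the number of fish in a library. Libraries held between 41285460 and 49229143 counts. By these totals alone, a floor of 3 counts equals at most 0.0727 CPM (counts scaled to a common library size), whereas the other CPM given are TMM-scaled. Every library had between 189 and 2681 counts for each of the 9 genes.

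T cells recognise antigen through a receptor that has no enzyme activity of its own. The kinase Lck, held near the receptor by the co-receptors CD4 and CD8, phosphorylates its tails; ZAP-70 docks there and passes the signal on through adaptor proteins such as LAT. CD28 adds a second signal, the receptors for interleukin-7 and CCL25 govern survival and the seeding of the thymus, and the transcription factors GATA3 and RUNX3 are known in mammals for their part in the CD4 and CD8 lineages respectively. T cells mature in the thymus and recirculate, and in the fish the kidney marrow holds a lymphoid fraction that includes them.

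None of the 9 genes passed the test between the genotypes that was run across all genes. All 9 passed the low-count filter, and 0 reached a Benjamini-Hochberg adjusted p under 0.05 with edgeR's quasi-likelihood test, while 66 of the 21893 genes tested did (0.301%). The smallest adjusted p among the 9 was 0.372, for cd28. Fitted values were below 0 (lower in mutants) for 8 of the 9 against 48.1% of all genes tested, with a median log2 fold change of -0.25 against 0.02 over all genes. The unadjusted p was under 0.05 for cd28 and RUNX3, both lower in mutants, where 6.93% of all genes tested had such a p and were lower, and 11.9% in either direction. DESeq2 and limma voom also called 0 of the 9, where they called 999 of 28637 and 75 of 21893 genes. A fit blocked on replicate number called 0 of the 9 as well, and 468 genes, 2.14% of all. At an unadjusted p under 0.05, DESeq2, voom and the block had 1, 2 and 1 of the 9. The shares of all genes at that p in these 3 fits were not counted. RUNX3 fell short of it with DESeq2 (unadjusted p = 0.0509) and with the block (unadjusted p = 0.0653, edgeR). Several of the 9 genes moved together from library to library, as described further on, so the 8 below 0 are not 8 separate observations. In RNA from whole marrow, the number of T cells, their RNA per cell and the share of other cells cannot be told apart.

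**Figure D1:**
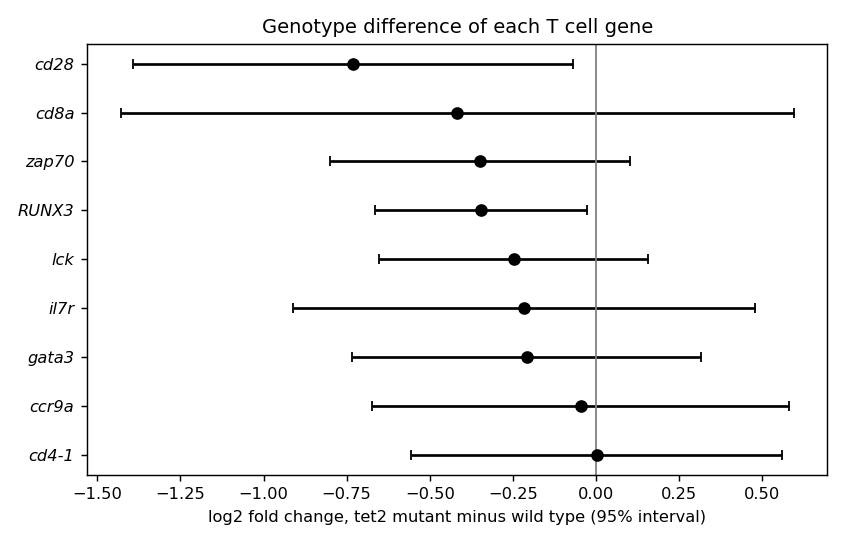
Fitted log2 fold change of each gene (tet2 mutant minus wild type, edgeR, 3 libraries per genotype) with its 95% interval; the vertical line marks no difference. The intervals of cd28 and RUNX3 lie below 0 and the other 7 include it, before any adjustment for the number of genes tested.

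The co-stimulatory receptor gene cd28 (ENSDARG00000095070; GRCz10 chromosome 9, 14014659 to 14018665, plus strand) had the largest fitted difference of the 9. Its values were 6.49, 11.7 and 10.7 CPM in wild type libraries 1, 2 and 3 and 6.02, 4.75 and 6.64 CPM in the mutant libraries. Wild type 1 lay among the mutants, just under mutant 3, while wild type 2 and 3 stood above all of them. The mean was 9.64 ± 2.77 CPM for wild type and 5.80 ± 0.966 CPM for mutants (SD, n = 3 each here and below), a log2 fold change of -0.73 (SE 0.28, 95% interval -1.39 to -0.07). Leaving out single libraries moved it between -0.57 (without wild type 2) and -0.96 (without wild type 1).

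Of the co-receptor genes, cd8a (ENSDARG00000044797; chromosome 21, 11467525 to 11470778, plus strand), whose product marks cytotoxic T cells, varied the most of the 9. It had 7.70, 11.5 and 14.5 CPM in wild type and 9.26, 4.06 and 11.9 CPM in mutants. Mutant 2 was the lowest library and wild type 3 the highest, 3.57-fold apart, and the genotypes overlapped. The log2 fold change was -0.42 with an interval of -1.43 to 0.60, which spans from 0.371 to 1.51 times the wild type level. The CD4 co-receptor gene cd4-1 (ENSDARG00000070668; chromosome 16, 12020995 to 12055262, minus strand) had 9.43, 8.31 and 5.99 CPM in wild type and 8.35, 6.64 and 8.76 CPM in mutants. Its means of 7.91 ± 1.75 and 7.92 ± 1.13 CPM were nearly equal, and the interval of its log2 fold change ran from -0.56 to 0.56; the sign of that change depended on which library was left out. Wild type 3, the highest library for cd8a, was the lowest for cd4-1. In marrow with no sort named, the cells that gave the cd4-1 reads were not identified.

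The kinase genes shared their high and low libraries. For lck (ENSDARG00000102525; chromosome 17, 25326343 to 25363985, minus strand) the values were 18.7, 25.0 and 26.2 CPM in wild type and 18.9, 18.2 and 21.7 CPM in mutants. For zap70 (ENSDARG00000015752; chromosome 8, 20361165 to 20382279, plus strand) they were 31.7, 46.2 and 43.7 CPM and 35.5, 26.5 and 33.4 CPM. For both genes wild type 2 and 3 were the highest libraries, wild type 1 lay within the mutants' range, and mutant 2 was the lowest. The log2 fold changes were -0.25 (SE 0.17) for lck and -0.35 (SE 0.19) for zap70. A short unnamed gene lies within the span of lck on the opposite strand, but no exon base is shared.

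The receptor genes differed from each other in pattern. The gene for the interleukin-7 receptor, il7r (ENSDARG00000078970; chromosome 21, 22392873 to 22399321, minus strand), had 11.7, 20.2 and 20.4 CPM in wild type and 17.6, 10.6 and 16.9 CPM in mutants. Mutant 2 and wild type 1 were its low libraries, and its log2 fold change was -0.22 (SE 0.29). The chemokine receptor gene ccr9a (ENSDARG00000055186; chromosome 2, 32813655 to 32815865, plus strand), whose product guides progenitors to the thymus, had 47.3, 39.4 and 39.5 CPM in wild type and 56.4, 27.2 and 38.5 CPM in mutants. The mutants alone spanned more than the whole wild type range, 2.07-fold between highest and lowest, and the log2 fold change was -0.05 (interval -0.67 to 0.58), which turned to 0.18 without mutant 2 and 0.038 without wild type 1. The name table lists this gene as CCR9, as it does a copy on chromosome 24. It was identified as ccr9a by 12 neighbouring genes that it shares with ccr9a in the RefSeq gene table (assembly GRCz12tu).

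Of the transcription factor genes, RUNX3 (ENSDARG00000052826; chromosome 13, 44955862 to 45063957, minus strand) was the one member whose genotypes did not overlap. Wild type libraries held 47.3, 54.9 and 58.1 CPM and mutant libraries 46.9, 39.7 and 39.5 CPM. The gap between wild type 1 and mutant 1 was under 1 CPM, and 10.3% of all genes tested were lower in all mutants without overlap, about the share that 1 of 9 makes. Means of 53.4 ± 5.57 and 42.0 ± 4.26 CPM gave a fitted log2 fold change of -0.35 (SE 0.13, interval -0.67 to -0.03; edgeR, Benjamini-Hochberg adjusted p = 0.379). RUNX3 is also known from natural killer and myeloid cells, so its reads need not come from T cells. The gene gata3 (ENSDARG00000016526; chromosome 4, 25065312 to 25075312, minus strand) had 8.04, 12.4 and 13.1 CPM in wild type and 9.28, 10.2 and 9.51 CPM in mutants. All mutants lay between wild type 1 and wild type 2, and the log2 fold change was -0.21 (SE 0.22). GATA3 is also a factor of the developing kidney. Summed CPM of 13 kidney tubule markers was 687, 1043 and 843 in wild type and 524, 650 and 626 in mutants, lowest in the same library of each genotype as gata3; their part in the gata3 values was not tested.

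**Figure D2:**
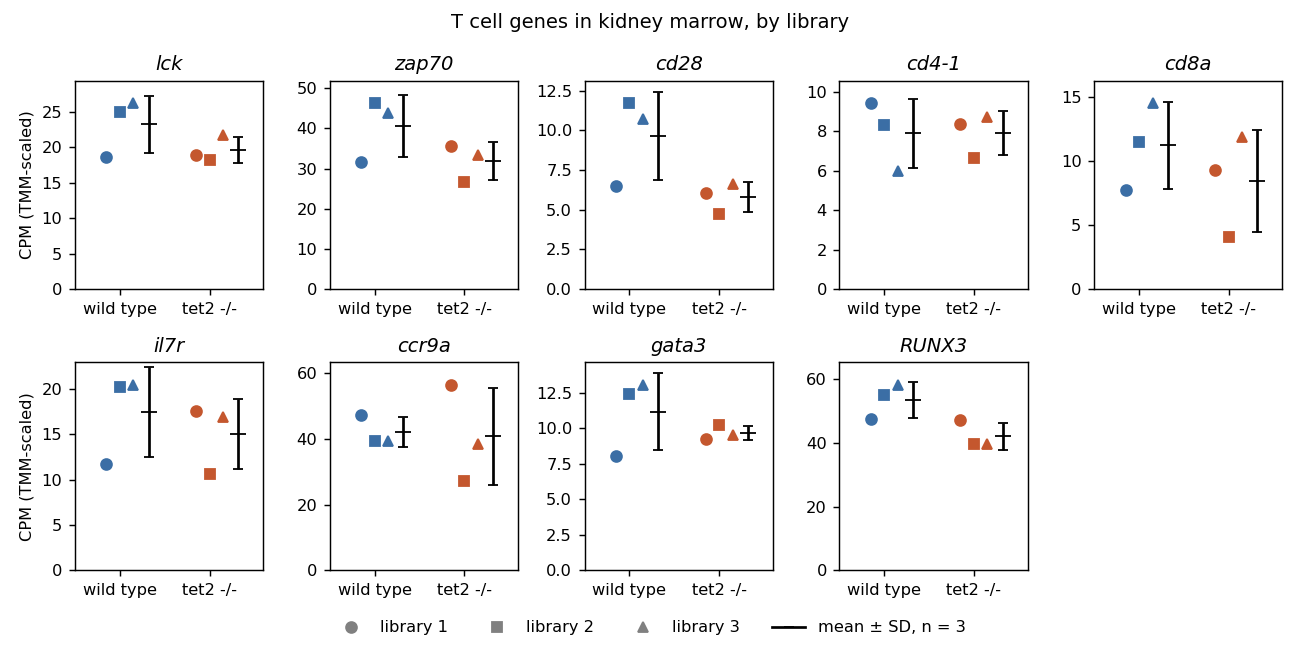
CPM of each gene in each library (circle, square and triangle for libraries 1, 2 and 3 of a genotype), with the mean ± SD over n = 3; all axes start at 0. The genotypes overlap for every gene except RUNX3, and wild type 1 and mutant 2 are the lowest of their genotype for 7 genes each.

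Wild type 1 and mutant 2 were low for most of the genes. For 8 of the 9 genes the highest and lowest library of a genotype were further apart than the fitted genotype means, RUNX3 being the exception (1.23-fold within wild type and 1.27-fold between genotypes). The same held for 89.3% of the 21724 tested genes with no library at 0, so it is not particular to the 9. Wild type 1 was the lowest wild type library for 7 genes, and mutant 2 the lowest mutant library for 7. The sum over the 9 genes was 188, 230 and 232 CPM in wild type and 208, 148 and 187 CPM in mutants. These sums overlapped, with wild type 1 below mutant 1 and level with mutant 3.

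A group of 5 genes, picked after their values were seen, carried this shared pattern: lck, zap70, il7r, cd28 and cd8a. Over the 6 libraries, Pearson's r of log2 CPM lay between 0.79 and 0.96 for their 10 pairs, and 8 pairs exceeded 0.8. Among all 36 pairs of the 9 genes 11 did (30.6%), against 4.89% of all pairs of tested genes. These r describe genes measured in the same libraries and are given without a test. Genotype means were not removed first, so a genotype difference that genes share also raises r. With wild type 1 and mutant 2 left out, which was decided once the values were known, 7 of the 10 pairs exceeded 0.8 over the 4 libraries left, the lowest r was 0.48, and 12.6% of all pairs of tested genes exceeded 0.8. In those 4 libraries lck, zap70, il7r and cd28 were each higher in wild type 2 and 3 than in mutant 1 and 3. Over them r therefore cannot separate a pattern of libraries from a genotype difference. The pattern over the 6 libraries was not confined to the 5 genes. With these 5, RUNX3 had r between 0.62 (cd8a) and 0.87 (zap70), and gata3 between 0.42 (cd8a) and 0.85 (lck). By contrast cd4-1 had r between -0.70 (with gata3) and 0.54 (with ccr9a), and ccr9a at most 0.54. Neither followed the group over the 6 libraries, although mutant 2 was the lowest mutant library for both.

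**Figure D3:**
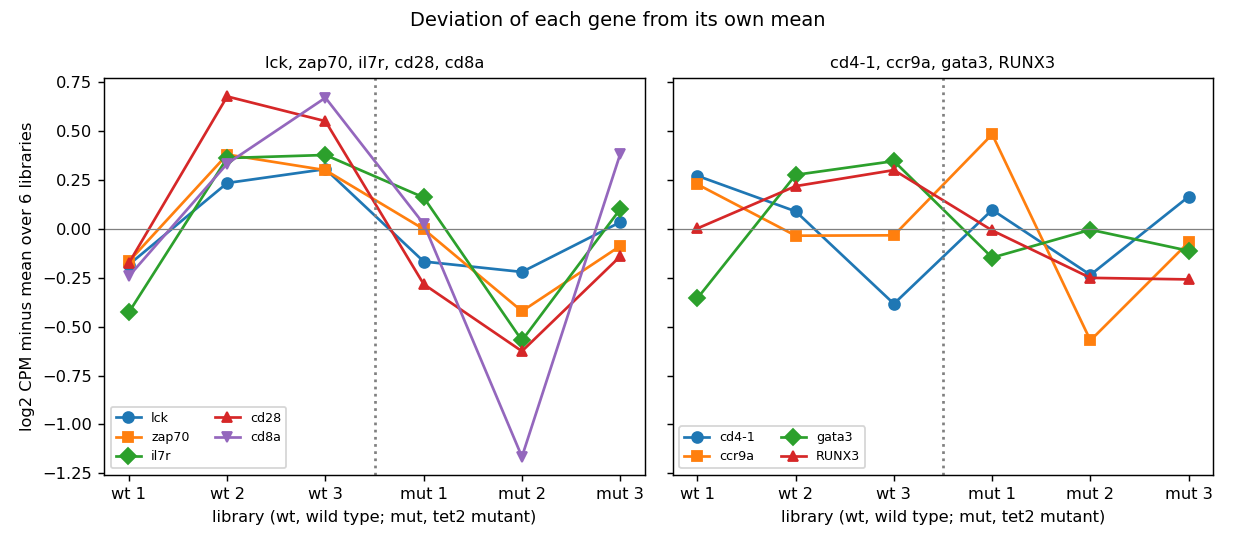
Log2 CPM of each gene minus its own mean over the 6 libraries; the order of libraries within a genotype carries no meaning and lines only join the values of 1 gene. The 5 genes on the left are low in wild type 1 and lowest in mutant 2. On the right, cd4-1 and ccr9a are also lowest of the mutants in mutant 2, but wild type 1 is their highest wild type library.

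Other genes of the T lineage varied in how far they followed this profile. Of 12 further T cell markers 8 matched a gene, and 4 of these had r above 0.8 with the mean profile of the 9 genes (each scaled to its own mean and SD), as had 3.58% of all genes tested. They were lat (r = 0.89), the scaffold that ZAP-70 phosphorylates, bcl11ba (0.92), related to the mammalian T lineage factor BCL11B, themis (0.83), needed in mouse thymocytes, and cd8b (0.80). For themis the values were 16.9, 23.6 and 24.6 CPM in wild type and 19.1, 16.9 and 23.1 CPM in mutants. The other matched markers were cd247 (r = 0.32), cd247l (0.58), tcf7 (0.59) and ccr9b (-0.89), the last at between 0.95 and 1.78 CPM. None of the 8 passed the test (edgeR, 0 also at an unadjusted p under 0.05), with 7 of 8 below 0 and a median log2 fold change of -0.22. The 5 genes outside the set with the highest r to that profile, of 12900 with at least 5 CPM, were GPR137C (0.992), si:dkey-109a10.2 (0.990), si:ch211-165d12.4 (0.989), tmem63a (0.984) and si:zfos-1069f5.1 (0.982). Of these, si:ch211-165d12.4 was the most abundant, with 87.5, 143 and 139 CPM in wild type and 98.3, 65.4 and 106 CPM in mutants.

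Levels between genes were compared per kilobase of exon. In wild type ccr9a stood highest at 22.7 ± 2.44 CPM per kb, followed by zap70 at 15.7 ± 3.02, lck at 11.0 (9.26 in mutants) and il7r at 10.8 ± 3.08. Below them came cd8a at 8.44 ± 2.56 CPM per kb, RUNX3 at 7.92 ± 0.826, cd28 at 5.98 ± 1.72, cd4-1 at 3.73 ± 0.826 and gata3 at 3.67 ± 0.899. Among neighbours in this order, the ranges of mean ± SD were separate for ccr9a and zap70 and overlapped for every other pair. On the same scale, the 10 B cell markers ran from 4.77 (pax5) to 84.0 CPM per kb (ighm). The wild type means of cd4-1 and gata3 lay below this range, and those of the other T cell genes within it. The 8 erythroid markers ran from 29.8 (gata1a) to 11521 (hbaa1) and the 6 neutrophil markers from 42.9 (mmp9) to 13064 (lyz), above the wild type means of all 9 genes.

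The ratio of cd8a to cd4-1 transcripts changed from library to library. Per kilobase, cd8a exceeded cd4-1 by between 1.30-fold (wild type 1) and 3.86-fold (wild type 3) in wild type, and by 1.77 and 2.16-fold in mutant 1 and 3, while in mutant 2 the ratio was 0.977. The genotypes overlapped in this ratio. The neighbouring cd8b, 16.2 kb from cd8a, had 5.08, 5.95 and 8.27 CPM in wild type and 3.07, 1.48 and 7.29 CPM in mutants. Mutant 2 was lowest for both CD8 genes and wild type 3 highest, and the log2 fold change of cd8b was -0.70 (SE 0.56; edgeR, Benjamini-Hochberg adjusted p = 0.679). The second CD4 gene, cd4-2.2, 14.1 kb from cd4-1, had 4.67, 6.81 and 4.33 CPM in wild type and 4.52, 5.11 and 2.08 CPM in mutants, a log2 fold change of -0.43 (SE 0.39). Its highest library was wild type 2 and its lowest mutant 3, unlike cd4-1.

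**Figure D4:**
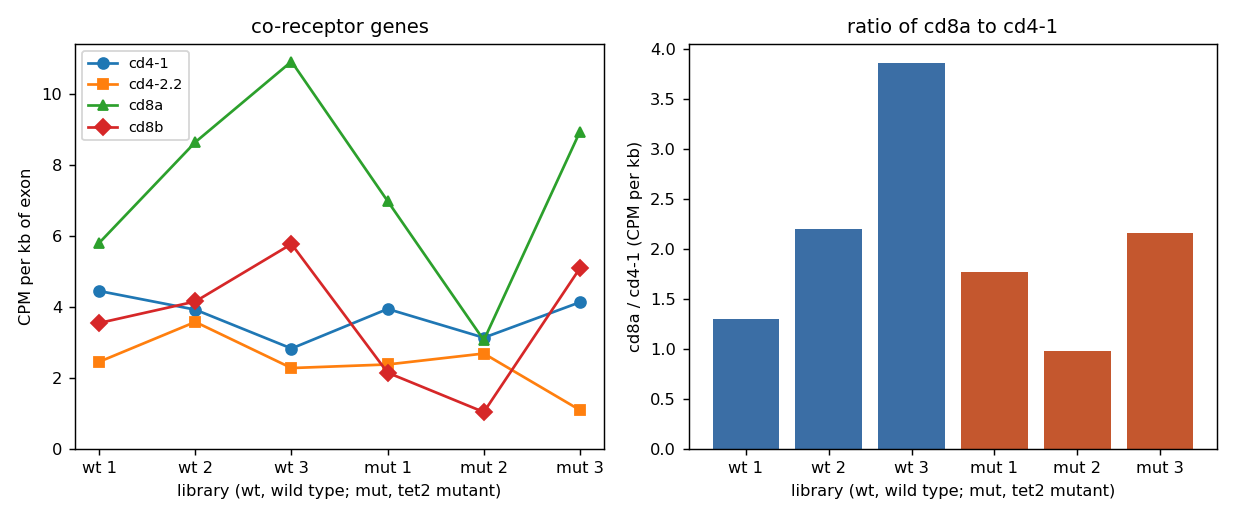
Left, CPM per kilobase of exon for cd4-1, cd4-2.2, cd8a and cd8b in each library; right, the ratio of cd8a to cd4-1 on that scale. The ratio runs from 0.977 in mutant 2 to 3.86 in wild type 3, and the genotypes overlap.

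The 9 genes were also set against ptprc, the gene of the leukocyte surface phosphatase CD45. Expression of ptprc (ENSDARG00000071437) was 612, 611 and 596 CPM in wild type and 729, 673 and 663 CPM in mutants, higher in all mutants but not past the test (log2 fold change 0.18, SE 0.10; edgeR, Benjamini-Hochberg adjusted p = 0.512). The summed CPM of the 9 genes equalled 30.8, 37.6 and 39.0% of ptprc CPM in wild type and 28.6, 21.96 and 28.2% in mutants. The genotypes did not overlap in this ratio, but they overlapped in the sum itself, and ptprc alone was higher in all mutants. The share of all genes tested that was higher in all mutants was not counted. In the ratio wild type 1 lay close to mutant 1, and the ratio was formed after the values were seen and is given without a test. RUNX3, ccr9a and zap70 had the largest wild type means of the 9 (53.4, 42.0 and 40.5 CPM). As RUNX3 reads need not come from T cells, the ratio is not a share of T cells among leukocytes.

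Genes around the 9 were read from 7 pathway lists with 125 matched genes, of which 121 were tested and 0 passed (edgeR). DESeq2 called 2 of these 121, where it called 999 of 28637 genes over all, and voom called 0. With edgeR, 4 lower and 2 higher genes had an unadjusted p under 0.05, 4.96% of those tested, less than the 11.9% of all genes. Among 29 genes of proximal receptor signalling 20 were below 0 (median log2 fold change -0.03). The adaptor gene sh2d1ab, of the family of SAP, had the smallest p there, with 15.8, 17.3 and 16.0 CPM in wild type and 12.2, 12.7 and 12.0 CPM in mutants (-0.41, SE 0.13; edgeR, Benjamini-Hochberg adjusted p = 0.275). All mutants lay below all wild types, as for 10.3% of all genes tested, and the libraries of a genotype were close together. Among regulators of Lck, the log2 fold change was -0.0012 (SE 0.10) for csk, whose kinase silences it, and -0.060 (SE 0.15) for the phosphatase gene ptpn22. For the Lck relative fynb it was 0.15 (SE 0.13).

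The co-receptor and checkpoint list had 6 of 9 tested genes below 0 (median -0.14), cd8b and tnfrsf18 having the smallest p (unadjusted p = 0.255 and 0.257, edgeR). Of 27 T lineage transcription factors 20 were below 0 (median -0.12). In that list myb, a factor of blood progenitors as well as T cells, had 513, 433 and 396 CPM in wild type and 387, 286 and 300 CPM in mutants (-0.46, SE 0.16). In the opposite direction ets1, a lymphoid and endothelial factor, had 21.3, 18.7 and 22.6 CPM and 33.6, 26.4 and 24.2 CPM (0.43, SE 0.16). Neither passed (edgeR, Benjamini-Hochberg adjusted p = 0.343 and 0.382). The genotypes did not overlap for either. Like myb, 10.3% of all genes tested were lower in all mutants without overlap. The share that was higher in all mutants, as ets1 was, was not counted. Cytokine receptor and JAK-STAT genes had 10 of 18 below 0 (median -0.02), with il2rgb (-0.29, SE 0.23) and socs1a (0.31, SE 0.25) having the smallest p. The receptor chain il2rga, which pairs with the interleukin-7 receptor, stood at 78.5 ± 5.86 CPM (wild type) and 85.1 ± 12.5 CPM (mutants).

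The smallest p of the 7 lists belonged to a homing gene. The chemokine gene ccl25b (ENSDARG00000070873; chromosome 11, 6264427 to 6268468), whose mammalian relative CCL25 is the ligand of CCR9, had 16.1, 27.6 and 26.5 CPM in wild type and 6.40, 7.52 and 11.0 CPM in mutants. Every mutant lay below every wild type library, as for 10.3% of all genes tested. For ccl25b, means of 23.4 ± 6.33 and 8.31 ± 2.42 CPM gave a fitted log2 fold change of -1.49 (SE 0.29). It did not pass (edgeR, Benjamini-Hochberg adjusted p = 0.112, and from 0.105 to 0.356 with other scalings, without a filter or with libraries left out) but was called with the replicate block (adjusted p = 0.0256) and by DESeq2 (adjusted p = 0.000193). Summed markers of kidney tubule (524 to 650 CPM in mutants, 687 to 1043 in wild type) and of skeletal muscle (39.7 to 91.1 and 201 to 270) were likewise lower in all mutants, and their part in the ccl25b values was not tested. The egress receptor gene s1pr1 had 2.01 ± 0.385 and 1.14 ± 0.226 CPM (-0.82, SE 0.30). Altogether 10 of 14 homing genes were below 0 (median -0.15).

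Of 16 effector and subset genes tested 7 were below 0 (median 0.04). The type 2 cytokine gene il13 had 2.73, 1.27 and 2.25 CPM in wild type and 6.42, 4.08 and 3.83 CPM in mutants. All mutants exceeded all wild types (means of 2.08 and 4.78 CPM), and the share of all genes tested that did so was not counted. The gene il13 did not pass (edgeR, Benjamini-Hochberg adjusted p = 0.282). DESeq2 called it (adjusted p = 0.0361), among the 999 of 28637 genes that it called. For il4, another type 2 cytokine gene, the values were 0.410, 0.119 and 0.243 CPM and 0.547, 0.408 and 0.712 CPM, with overlap. The regulatory T cell factor gene foxp3a had 0.888, 2.17 and 2.81 CPM in wild type and 2.04, 1.91 and 2.25 CPM in mutants, with wild type 1 the lowest library. Recombination genes, shared by T and B cell precursors, had 5 of 8 below 0 (median -0.03), with dclre1c (-0.28, SE 0.16) and rag1 (-0.26, SE 0.23) having the smallest p.

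**Figure D5:**
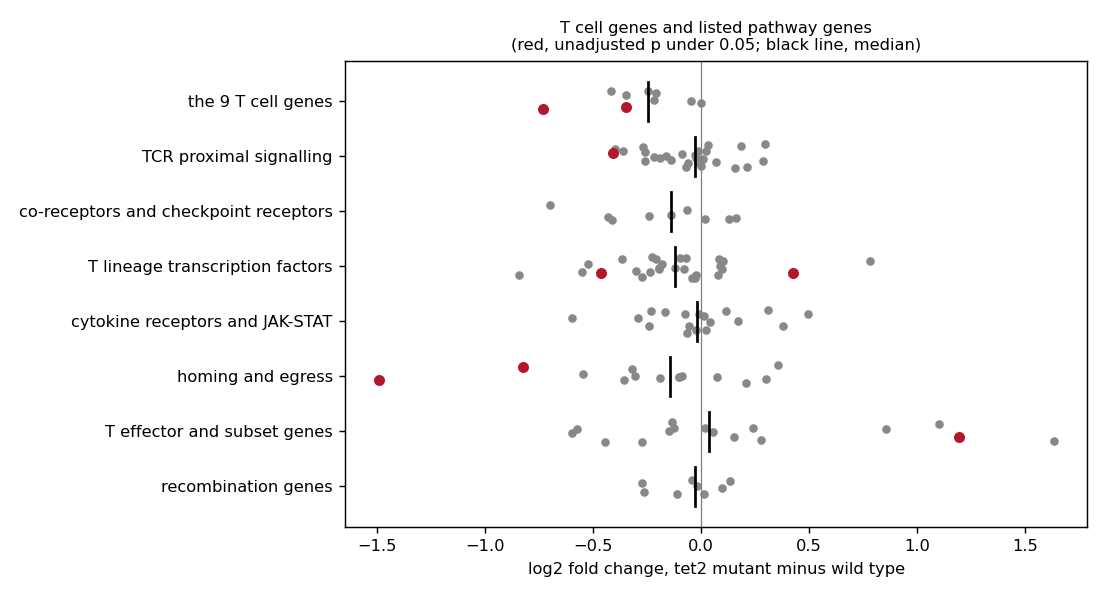
Log2 fold change (tet2 mutant minus wild type, edgeR) of the 9 genes and of the tested genes of each list; each point is 1 gene, red where its unadjusted p is under 0.05, and the black line is the median. The medians of the lists lie between -0.15 and 0.04 and that of the 9 genes at -0.25.

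Markers of other cells were summed in each library to set beside these values, and no list had a gene at 0 in all libraries. Neutrophil markers (6 of 10 names matched) amounted to 22107, 10763 and 11085 CPM (wild type) and 16999, 11997 and 13053 CPM (mutants), highest in wild type 1, the wild type library lowest in T cell transcripts; in mutant 2 they were the lowest of the mutants. B cell markers (10 of 15) ran from 1101 to 1290 CPM in wild type and 1030 to 1272 in mutants, and NK-like and cytotoxic markers (9 of 10) from 452 to 559 and 455 to 553. Macrophage markers (8 of 10, as 13 genes) ran from 4664 to 5066 and 4399 to 6088 CPM, erythroid markers (8 of 10) from 10951 to 15337 and 8273 to 13854, and thrombocyte markers (7 of 7) from 349 to 372 and 267 to 349. Egg transcripts (14 of 14) were 7.38, 7.81 and 949 CPM in wild type and 567, 357 and 3478 in mutants. Within each genotype they were lowest in wild type 1 and mutant 2, as was the sum over the 9 genes. Across the genotypes the order differed, with mutant 3 and wild type 3 the highest for egg transcripts. The part of these cells in the T cell values was not tested. The targeted gene tet2 was transcribed in all libraries, at 48.1, 52.5 and 48.1 CPM in wild type and 51.1, 45.1 and 30.5 CPM in mutants, which checks no label since the allele is not described.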

How the data were processed

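Per the labels, total RNA of kidney marrow was sequenced. The authors deposited raw counts of reads per gene, 1 table per library, for which the submitters' processing notes name Trimmomatic 0.36, STAR 2.5.2b and the build GRCz10. How reads were counted, with which strand setting and annotation, is not given in the sources used here. Deposited gene lengths (another column) were used for CPM per kilobase. Symbols matched 25752 of 31484 gene IDs; other listed names were matched by RefSeq synonym or by at least 2 shared neighbours within 15 genes. No sequences were used here.

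Genotypes were compared over all genes in R 4.3.3 with edgeR 4.0.16 (filterByExpr, TMM scaling, two-sided quasi-likelihood test, 9591 genes untested), adjusted by Benjamini-Hochberg, with a threshold of 0.05. SE (fold change over the root of F) gave the 95% intervals. CPM is TMM-scaled; log2 CPM has a prior count of 2. The fit was tested on simulated data. Alternatives were RLE and upper quartile scaling, no filter, DESeq2 1.42.0, limma 3.58.1 voom, the replicate block and omitted libraries. The members, lists and tests were chosen with earlier results of these data known. One gene of the set is not reported here. Always named were the 9 genes, tet2 and ptprc, and for each list up to 4 passing genes, or the 2 of smallest p where none passed, and the 5 genes most alike in profile (Pearson r, mean of at least 5 CPM); other genes were named after their values were seen.

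No 2 libraries of a genotype were copies (chi-square of counts per degree of freedom 51.9 to 154). Same-numbered libraries of the genotypes deviated together (r = 0.368, 0.473 and 0.634 over 21893 genes, others -0.443 to 0.124). The numbers were therefore used to pair the libraries in the replicate block, which is an alternative. The main fit is unpaired, so its SE, intervals and adjusted p take no account of the numbers. Deviations within a genotype cancel out over its libraries, so the r of other-numbered pairs are not independent of those of same-numbered pairs. The pairing is read from the data, since the labels do not say what a number shares. Intervals and floors cover the spread between libraries or counting error only.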

Additional observations from a re-analysis of the deposited data

How the results depend on the processing

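Under 13 alternatives 0 of the 9 genes passed. The direction held for lck, zap70, il7r, cd28, cd8a, gata3 and RUNX3 under each, but its size rested on single libraries: without mutant 2, il7r was at -0.017 and cd8a at -0.086, cd8a was at -0.76 without mutant 3, and gata3 lay between -0.41 (without wild type 1) and -0.10 (without wild type 3). The adjusted p ran from 0.197 to 0.858 for cd28 and from 0.257 to 0.830 for RUNX3. The log2 fold change of cd4-1, near 0, turned to -0.061 with upper quartile scaling, -0.0041 without a filter and -0.26 without both libraries numbered 3. Leaving out single libraries moved it between -0.17 and 0.13, below 0 without wild type 3 (-0.17), mutant 1 (-0.041) or mutant 3 (-0.088), and moved ccr9a between -0.36 and 0.18, above 0 without wild type 1 (0.038) or mutant 2 (0.18). The cause was not tested. The median of the 9 genes stayed between -0.44 (without wild type 1) and -0.17 (without wild type 3).

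Over all genes, 66 calls became 468 with the replicate block, 999 with DESeq2 and 312 without both libraries numbered 3. They became 6, 3 and 15 without wild type 1, 2 and 3, and 2, 2 and 11 without mutant 1, 2 and 3. Of the pathway lists, the homing list gained 1 call (ccl25b) with the replicate block and 1 with DESeq2, and the effector list 1 (il13) with DESeq2. Marker lists gained calls too, given here for the replicate block and DESeq2 in that order, out of the genes tested. They were kidney tubule 4 and 4 of 13, skeletal muscle 3 and 7 of 7, and macrophage 1 and 2 of 13. NK-like and cytotoxic markers had 1 and 1 of 9, and egg markers 1 and 0 of 14. Over all genes the block called 2.14% and DESeq2 999 of 28637. Of the genes named in the text, the replicate block changed the call of ccl25b alone. With 3 libraries per genotype, the 95% interval of cd8a spans 0.371 to 1.51 times the wild type level.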
